A study of Homo sapiens with 9 samples.

Results

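HOX genes encode homeodomain transcription factors that give cells their position along the body axis. In humans they lie in 4 clusters, and the order of the genes along a cluster follows the order in which they act along the axis, from anterior paralogs at one end to posterior paralogs at the other. In the female reproductive tract, HOXA9, HOXA10, HOXA11 and HOXA13 pattern successive segments of the Müllerian duct, and ovarian carcinomas can express genes of the same clusters. The clusters also give rise to long noncoding RNAs. HOTAIR is made from HOXC and is studied for its links to Polycomb repression, HOTTIP lies at the posterior end of HOXA and is studied for its links to the MLL activator complexes, and HOTAIRM1 lies in the anterior part of HOXA. CTCF binds at boundaries within HOX clusters, and CTCFL (also called BORIS) is its paralog, with a similar zinc finger domain, normally made in the testis.

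The genes described here are those whose symbols begin with HOXA, HOXB, HOXC or HOXD and a digit, together with HOTAIR, HOTTIP, HOTAIRM1 and the antisense genes named after a HOX gene or cluster. They number 55 of the 60660 genes in the count matrix, 39 of them coding and 16 noncoding. On the GRCh38 build, the 17 members of HOXA lie on chromosome 7 between 27092993 and 27207259, the 14 of HOXB on chromosome 17 between 48528526 and 48728750, the 14 of HOXC on chromosome 12 between 53935328 and 54056030, and the 10 of HOXD on chromosome 2 between 176092721 and 176190907.

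The RNA came from OVCAR3, an established line of human epithelial ovarian cancer cells, and was read by paired-end sequencing to ask which genes depend on the level of CTCFL. CTCFL-OE cells were transfected transiently and overnight, with Xfect reagent, with 2 µg of pCpGfree-vitroHBORIS, a plasmid with the open reading frame for the CTCFL protein of 663 amino acids, and collected at 48 h. Control cells carried the matching LacZ plasmid, pCpGfree-vitroHLacZ, according to the study's methods, while the labels state only that they had no CTCFL treatment. CTCFL-KD cells had CTCFL lowered with siRNA in an earlier experiment of the same laboratory, and the series holds no control of that experiment, so that experiment, delivery method and knockdown cannot be told apart wherever CTCFL-KD is compared. Each group has 3 biological replicates, each pooled from 3 technical ones, all of 1 cell line.

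The libraries held 19006695, 24490080 and 19044832 counts in Control, 20178085, 18104845 and 17249451 for CTCFL-OE, and 14332622, 16605777 and 17995196 for CTCFL-KD. At these depths 3 counts, the limit that a count of 0 allows, equal 0.117 to 0.271 CPM (normalised counts, scaled to 1000000 per library by its total and TMM factor). Intervals and limits of this kind cover counting error only. CTCFL-KD replicate 1 stood apart from the other libraries, with a TMM factor of 0.775 and with short genes read high: relative to the other CTCFL-KD libraries, its median log2 difference was 0.72 in the fifth of genes with the shortest exons and -0.56 in the fifth with the longest. Mitochondrial genes took 6.16% to 6.52% of counts in Control, 7.40% to 14.9% for CTCFL-OE and 7.80% to 11.8% for CTCFL-KD.

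CTCFL itself followed the group labels. It had 6, 9 and 10 counts in the Control libraries, 36, 34 and 72 for CTCFL-OE and 0, 1 and 0 for CTCFL-KD, with no overlap between the groups. In CTCFL-OE it rose by 2.73 on the log2 scale (SE 0.479, edgeR adjusted p = 0.0287). Adjusted p-values here and below come from edgeR's quasi-likelihood (QL) test, corrected over all genes tested by the method of Benjamini and Hochberg (BH). In CTCFL-KD it was 17.6-fold lower than in Control, with a 95% counting interval of 2.89 to 724. CTCF read 80.7 ± 4.03 CPM in Control, 70.3 ± 6.80 for CTCFL-OE and 60.4 ± 5.36 for CTCFL-KD (mean ± SD, n = 3 each), and no comparison with Control called it. Every CTCFL-KD library nonetheless lay below Control, at a log2 fold change of -0.42 (SE 0.158, BH-adjusted p = 0.0566, edgeR QL test).

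Levels in Control rank the clusters in cells without CTCFL treatment. To compare genes of different length, CPM was divided by the kilobases of exon that a gene shares with no other gene, since many HOX genes and their antisense partners overlap. In the deposited counts the reads of shared exons are largely missing: 18 of 21 protein-coding genes whose exons are wholly covered from the other strand had 0 counts in all libraries (85.7%), against 14.2% of 10499 genes with unshared exons. Sense and antisense reads inside shared exons can therefore not be told apart, and HOXA7 has 904 unshared bases of its 2411 and HOXA10-AS 624 of its 1654.

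OVCAR3 Control cells transcribed the HOXA cluster above all. HOXA5, which acts where neck meets thorax and in the lung, was the most abundant member at 31.3 ± 0.485 CPM per kb (SD, n = 3), with 54.3, 52.8 and 54.1 CPM in the 3 libraries. HOXA3, an anterior gene of the neck and upper thorax, followed at 21.7 ± 0.555 CPM per kb, with 76.9, 73.1 and 75.1 CPM. These levels hardly varied between replicates, and the ranges of HOXA5, HOXA3 and the genes after them did not overlap. HOTAIRM1 at 13.3 ± 1.77 CPM per kb (11.9, 11.7 and 9.27 CPM) and HOXA4 at 11.6 ± 0.872 (11.4, 9.99 and 10.03 CPM) came next and overlapped each other.

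HOXB7 led the HOXB cluster at 8.69 ± 0.709 CPM per kb, with 14.4, 12.4 and 12.9 CPM in Control. HOXC13, a posterior gene known for its part in hair and nail formation, led HOXC at 4.79 ± 0.385 CPM per kb, with 9.67, 10.4 and 11.3 CPM. HOXD8 led HOXD at 3.01 ± 0.316 CPM per kb, with 6.06, 6.57 and 5.32 CPM. The most abundant coding genes of HOXA in Control were thus anterior and central paralogs. That of HOXB was a central paralog, whereas that of HOXC was its most posterior one. With all exonic bases as the length, HOTAIRM1 ranked behind HOXB7, at 7.32 against 8.69 CPM per kb, and HOXA4 stood at 6.05. Summed over its members, HOXA gave 230.9 ± 4.92 CPM in Control, HOXB 38.0 ± 3.33, HOXC 27.8 ± 1.12 and HOXD 11.1 ± 0.756 (SD, n = 3).

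**Figure D1:**
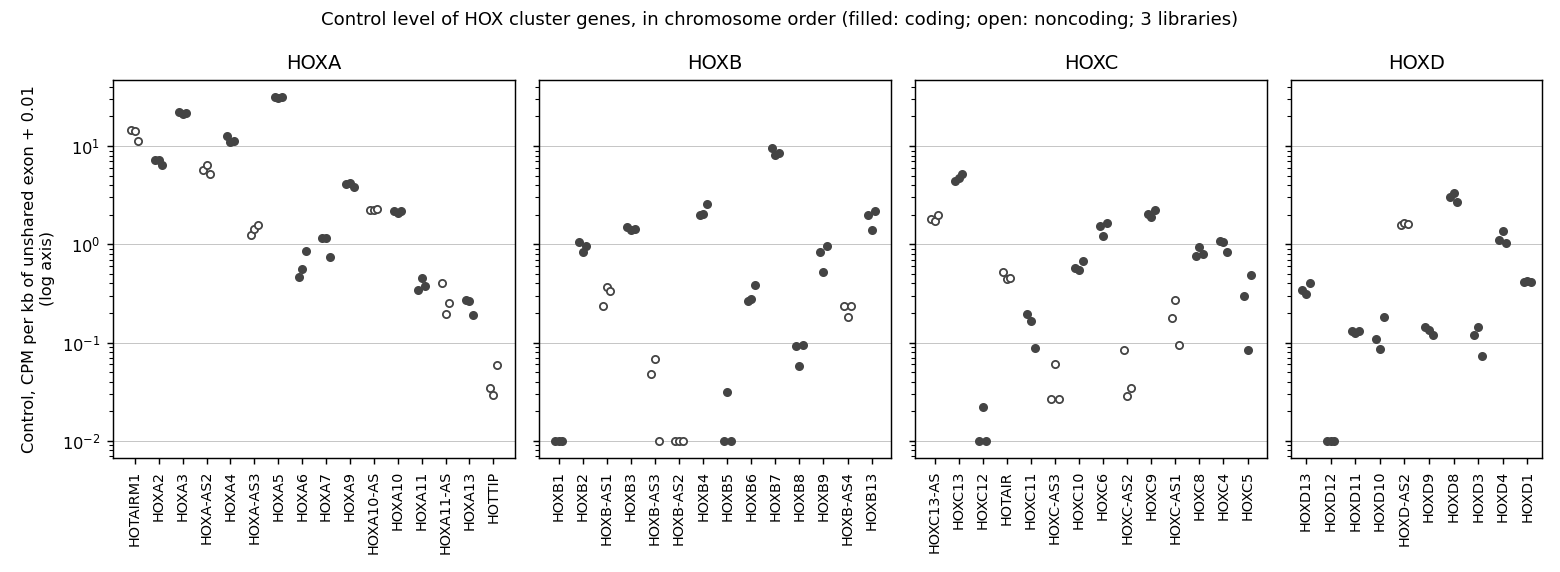
Level of HOX members in the 3 Control libraries, as CPM per kb of exon shared with no other gene, ordered along each cluster, on a log axis after adding 0.01, with 1 point for each library. HOXA5 and HOXA3 stand highest at 31.3 and 21.7 CPM per kb, and HOXC13 stands highest in its cluster at 4.79.

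Of the 55 members, 37 had enough counts to be tested, 29 coding and 8 noncoding: 15 of 17 in HOXA, 7 of 14 in HOXB, 9 of 14 in HOXC and 6 of 10 in HOXD. The other 18 had at most 14 counts in any library, and HOXB1 had 0 in all 9. A gene was called a differentially expressed gene (DEG) when its log2 fold change passed 1 in either direction with an adjusted p under 0.1 for CTCFL-OE versus Control, or under 0.05 for CTCFL-KD versus Control and CTCFL-KD versus CTCFL-OE. All 3 comparisons draw on the same libraries in pairs, and both treated groups share Control. Some members entered the test through 1 group alone. HOXD9 reached the count rule in every library only in CTCFL-KD, HOXC11 and HOXB-AS1 only in CTCFL-OE, and HOXD13 only in Control. HOXA10-AS, HOXA11, HOXA13, HOXC13-AS, HOTAIR, HOXC10, HOXC9 and HOXC8 reached it in every library of Control and CTCFL-OE but not of CTCFL-KD. The counts of members lower in CTCFL-KD below therefore include genes kept only through the groups where they are high.

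The first comparison asks which HOX genes differ when CTCFL is lowered. In CTCFL-KD, the posterior genes of HOXC and HOXA fell, several to a few counts per library, while HOXB2, HOXD9 and HOXA7 rose. By edgeR, 13 of 37 tested members were DEGs (35.1%), against 23.2% of the 17794 genes tested in all (4132 DEGs). Of these, 10 members fell, where 7.94% of all genes did, and 3 rose, where 15.3% of all genes did. The CTCFL-KD libraries lay wholly below the Control ones for 17 members and wholly above for 6, against 27.6% and 28.7% of all tested genes. The median log2 fold change was -0.34 over the tested members and 0.08 over all genes. It depends on CTCFL-KD replicate 1: without that library the medians were -0.71 over 39 tested members and 0.01 over all genes, and with trends in exon length and GC removed they were -0.56 and 0.01. All 13 kept their call when CTCFL-KD replicate 1 was left out.

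HOXC had the largest share of called members. Its summed level was 27.4, 26.9 and 29.0 CPM in the Control libraries and 11.5, 7.43 and 7.29 CPM in CTCFL-KD, so that the groups were far apart. Of its 9 tested members, 6 were DEGs, all lower, with a median log2 fold change of -3.12. The fallen genes run from the posterior end of the cluster to HOXC8, and the anterior end, with HOXC6 and HOXC4, was not called.

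HOXC13 had 193, 268 and 224 counts in Control and 16, 13 and 23 in CTCFL-KD. The groups did not overlap, and HOXC13 fell by 3.19 on the log2 scale (SE 0.257, BH-adjusted p = 1.18e-05, edgeR QL test). HOXC13-AS, its antisense neighbour, had 44, 55 and 48 counts in Control and 2, 0 and 4 in CTCFL-KD. It fell by 4.05 on the log2 scale, with no overlap between groups (SE 0.489, BH-adjusted p = 0.000151, edgeR QL test), and of its 1408 exonic bases 1236 are shared with no other gene.

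HOTAIR, the long noncoding RNA between HOXC12 and HOXC11, had 30, 33 and 26 counts in Control and 1, 5 and 1 in CTCFL-KD. All CTCFL-KD libraries lay far below Control, and HOTAIR fell by 3.12 on the log2 scale (SE 0.525, BH-adjusted p = 0.00111, edgeR QL test). HOXC11, the coding gene beside it, had 12, 13 and 5 counts in Control and 1, 9 and 1 in CTCFL-KD. The HOXC11 groups overlapped through CTCFL-KD replicate 2, and its log2 fold change of -0.93 was not called (SE 0.729, BH-adjusted p = 0.335, edgeR QL test). Without CTCFL-KD replicate 2 the log2 fold change of HOXC11 was -2.61 and the gene was called (BH-adjusted p = 0.0423, edgeR QL test, range over all alternatives 0.0423 to 0.697).

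HOXC10, a gene of lumbar and hindlimb identity, had 24, 30 and 28 counts in Control and 4, 4 and 5 in CTCFL-KD. It fell by 2.13 on the log2 scale with no overlap between groups (SE 0.328, BH-adjusted p = 0.000616, edgeR QL test). HOXC9, of lower thoracic identity, had 61, 73 and 66 counts in Control and 3, 4 and 5 in CTCFL-KD. Each CTCFL-KD library held fewer than 6 counts of it, and it fell by 3.53 on the log2 scale (SE 0.290, BH-adjusted p = 1.23e-05, edgeR QL test). HOXC8 had 36, 58 and 38 counts in Control and 2, 3 and 2 in CTCFL-KD. It fell by 3.66 on the log2 scale, again with separate groups (SE 0.346, BH-adjusted p = 2.85e-05, edgeR QL test).

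At the other end of the cluster the libraries overlapped. HOXC6 had 4.41, 3.50 and 4.71 CPM in Control and 5.05, 2.68 and 2.96 CPM in CTCFL-KD, for a log2 fold change of -0.26. HOXC4 had 2.45, 2.37 and 1.87 CPM in Control and 3.34, 2.38 and 2.08 CPM in CTCFL-KD, for a log2 fold change of 0.20. Neither was called, in contrast to HOXC8 at -3.66, and the difference between the genes was not tested. HOXC6 is counted along a long gene body that spans HOXC9 and HOXC8, from 53990624 to 54030823. The untested members of HOXC had at most 7 counts in any library: HOXC12 had 1 count in all, HOXC5 was 6.35-fold lower in CTCFL-KD with a 95% counting interval of 0.880 to 278, and HOXC-AS2, at 0 in every CTCFL-KD library, was at least 1.18-fold lower against a limit of 3 counts over the group.

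In HOXA, 5 of 15 tested members were DEGs, 4 lower and 1 higher. Posterior members were among those that fell, but the falls were not confined to the posterior end. The abundant central genes were not called. The summed level was 235.6, 231.4 and 225.8 CPM in Control and 208.1, 153.2 and 146.0 CPM in CTCFL-KD, with CTCFL-KD replicate 1 nearest to Control.

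HOXA13, which patterns the hindmost part of the reproductive and urinary tract, had 26, 33 and 18 counts in Control and 0, 1 and 1 in CTCFL-KD. It was called lower (BH-adjusted p = 0.000106, edgeR QL test), and the groups stood at 77 against 2 counts in all, a 27.2-fold lower level with a 95% counting interval of 7.27 to 228. HOXA10, a regulator of uterine development, had 118, 146 and 117 counts in Control and 11, 17 and 30 in CTCFL-KD. It fell by 2.23 on the log2 scale with separate groups (SE 0.268, BH-adjusted p = 0.000141, edgeR QL test).

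HOXA10-AS, transcribed against HOXA10, had 28, 36 and 28 counts in Control and 4, 10 and 5 in CTCFL-KD. It fell by 1.76 on the log2 scale, all CTCFL-KD libraries below Control (SE 0.345, BH-adjusted p = 0.00263, edgeR QL test).

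Nearer the centre of the cluster the changes were smaller. HOXA9 had 9.12, 9.29 and 8.56 CPM in Control and 6.76, 4.58 and 5.20 CPM in CTCFL-KD, for a log2 fold change of -0.71 that passed the p threshold and not the fold threshold (BH-adjusted p = 0.0122, edgeR QL test). HOXA5 had 578, 740 and 793 counts in CTCFL-KD, a mean of 46.5 ± 4.87 CPM (SD, n = 3) with every library below the Control values given above, with a log2 fold change of -0.21. HOXA3 had 71.5, 45.7 and 43.1 CPM in CTCFL-KD, for a log2 fold change of -0.49. For HOXA3 and HOXA4, CTCFL-KD replicate 1 lay nearest to Control, with 10.1 CPM of HOXA4 against 6.24 and 6.46 in the other CTCFL-KD libraries and a log2 fold change of -0.47. HOTTIP, at the posterior end, had 2, 2 and 4 counts in Control and 0 in each CTCFL-KD library, at least 1.88-fold lower against a limit of 3 counts over the group, and was not tested.

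HOXA7 was the exception in its cluster. It had 21, 27 and 13 counts in Control and 13, 50 and 41 in CTCFL-KD, or 1.05, 1.05 and 0.658 CPM against 1.17, 2.97 and 2.25 CPM, so that CTCFL-KD replicate 1 lay just above the highest Control library. It rose by 1.23 on the log2 scale (SE 0.413, BH-adjusted p = 0.0371, edgeR QL test). The call depends on single libraries. In the edgeR QL test its BH-adjusted p was 0.0757, 0.0785 and 0.131 without Control replicate 1, 2 and 3, 0.0527 without CTCFL-OE replicate 2, and 0.134 and 0.0728 without CTCFL-KD replicates 2 and 3. With a term for the replicate number and only the groups compared, the edgeR QL test gave 1.20 (BH-adjusted p = 0.0614), and over all alternatives the adjusted p ran from 0.00669 to 0.134.

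Promoter windows are shown for HOXA13 and HOXA10, which fell in CTCFL-KD, and for HOXA9 and HOXC4, which were not called in CTCFL-KD versus Control. RefSeq (GRCh38.p14) gave windows of 300 bases, from 250 before to 50 after the start, for 29 of the 55 members. Each is written 5′ to 3′ on the gene's strand in lower case, with capitals for any match to 4 forms of the core of the CTCF motif, searched on both strands: the letters AGGGGGC, the form AGGTGGC with a different middle, the form AGAGGGC and last the form AGATGGC. A stretch of letters can match only 1 of them.
HOXA13, chr7:27200042-27200341, minus strand: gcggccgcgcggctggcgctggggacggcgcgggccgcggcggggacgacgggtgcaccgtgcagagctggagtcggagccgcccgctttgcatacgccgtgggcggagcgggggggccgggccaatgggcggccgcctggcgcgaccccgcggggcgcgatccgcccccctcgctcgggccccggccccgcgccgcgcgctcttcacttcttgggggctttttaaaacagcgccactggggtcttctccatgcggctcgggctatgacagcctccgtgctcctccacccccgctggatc
HOXA10, chr7:27179812-27180111, minus strand: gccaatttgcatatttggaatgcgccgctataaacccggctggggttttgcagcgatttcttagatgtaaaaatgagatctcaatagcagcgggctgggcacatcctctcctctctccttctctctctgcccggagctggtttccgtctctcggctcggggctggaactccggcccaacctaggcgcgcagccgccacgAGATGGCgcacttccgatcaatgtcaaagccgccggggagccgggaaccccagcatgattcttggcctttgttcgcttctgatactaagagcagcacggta
HOXA10, chr7:27174271-27174570, minus strand: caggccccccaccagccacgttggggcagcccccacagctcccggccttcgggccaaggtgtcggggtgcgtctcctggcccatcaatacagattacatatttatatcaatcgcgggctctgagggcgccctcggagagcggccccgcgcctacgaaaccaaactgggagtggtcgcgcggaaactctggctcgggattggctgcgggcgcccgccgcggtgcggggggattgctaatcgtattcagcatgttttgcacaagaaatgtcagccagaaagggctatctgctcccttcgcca
HOXA9, chr7:27165488-27165787, minus strand: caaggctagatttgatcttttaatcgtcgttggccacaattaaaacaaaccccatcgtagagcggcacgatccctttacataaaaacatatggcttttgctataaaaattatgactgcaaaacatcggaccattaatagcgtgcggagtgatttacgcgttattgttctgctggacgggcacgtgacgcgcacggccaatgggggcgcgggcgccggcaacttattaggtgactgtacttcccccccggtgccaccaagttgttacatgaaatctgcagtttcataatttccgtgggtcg
HOXC4, chr12:54016638-54016937, plus strand: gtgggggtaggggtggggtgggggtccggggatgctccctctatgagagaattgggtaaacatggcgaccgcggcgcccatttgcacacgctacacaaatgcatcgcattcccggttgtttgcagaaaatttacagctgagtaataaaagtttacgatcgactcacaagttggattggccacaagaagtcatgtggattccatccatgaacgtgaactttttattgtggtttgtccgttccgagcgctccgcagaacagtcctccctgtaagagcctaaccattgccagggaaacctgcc
The upstream HOXA10 window holds AGATGGC at position 200, counted from 1 at the 5′ end, and the other 4 windows hold none of the letters searched. Among all RefSeq windows, 10719 of 35116 held at least 1 of the forms (30.5%), against 12 of 37 windows of HOX members (32.4%) and 1 of 5 windows of members called in any comparison (20.0%). A match describes letters, not binding. Among called members, HOXA10-AS, HOXB2, HOXC8, HOXC9, HOXC10, HOXC13, HOXC13-AS, HOTAIR, HOXD9, HOTAIRM1, HOXB9 and HOXC11 have no window.

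HOXB and HOXD went the other way where they were called in the reported fit. HOXB2, an anterior gene of the hindbrain, had 49, 50 and 45 counts in Control and 98, 162 and 197 in CTCFL-KD, or 2.45, 1.94 and 2.28 CPM against 8.84, 9.63 and 10.8 CPM. Every CTCFL-KD library lay well above Control, and HOXB2 rose by 2.14 on the log2 scale (SE 0.205, BH-adjusted p = 3.09e-05, edgeR QL test). It was the 1 DEG of 7 tested members in HOXB. The summed level of HOXB was 39.9, 34.1 and 39.9 CPM in Control and 55.7, 53.1 and 52.0 CPM in CTCFL-KD.

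HOXB9 stood just outside the threshold. It had 43, 34 and 49 counts in Control and 11, 12 and 19 in CTCFL-KD, with separate groups, a log2 fold change of -1.11 and a BH-adjusted p of 0.0598 (SE 0.424, edgeR QL test). With only the groups compared, the edgeR QL test called it without and with a term for the replicate number (BH-adjusted p = 0.0369 and 0.0312), and with that term on all 9 libraries it did not. Over all alternatives its adjusted p in edgeR and DESeq2 ran from 0.00776 to 0.171, and leaving out Control replicate 2, CTCFL-OE replicate 1 or CTCFL-OE replicate 2 also called it (BH-adjusted p = 0.0446, 0.0243 and 0.0483, edgeR QL test). HOXB7, the most abundant gene of the cluster, had 19.3, 9.34 and 10.2 CPM in CTCFL-KD, where CTCFL-KD replicate 1 lay above Control and the others below, with a log2 fold change of -0.04. HOXB4 had 3.91, 3.93 and 5.01 CPM in Control and 7.94, 8.32 and 6.35 CPM in CTCFL-KD, for a log2 fold change of 0.81. The untested HOXB-AS2 had 0 counts in Control, 1, 2 and 1 for CTCFL-OE and 3, 2 and 3 for CTCFL-KD, at least 1.52-fold and 3.78-fold higher against a limit of 3 counts over the group.

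In HOXD, HOXD9 had 5, 6 and 4 counts in Control and 13, 10 and 12 in CTCFL-KD. It rose by 1.74 on the log2 scale with separate groups (SE 0.400, BH-adjusted p = 0.00614, edgeR QL test), at counts near the filter and through the group in which it is high. HOXD8 had 4.51, 5.35 and 5.04 CPM in CTCFL-KD, overlapping Control, and HOXD4 had 1.25, 1.55 and 1.17 CPM in Control and 2.35, 3.63 and 1.70 CPM in CTCFL-KD, for a log2 fold change of 0.94 under the fold threshold. The summed level of HOXD was 11.1, 11.9 and 10.4 CPM in Control and 14.5, 13.4 and 11.5 CPM in CTCFL-KD, with overlapping groups.

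**Figure D2:**
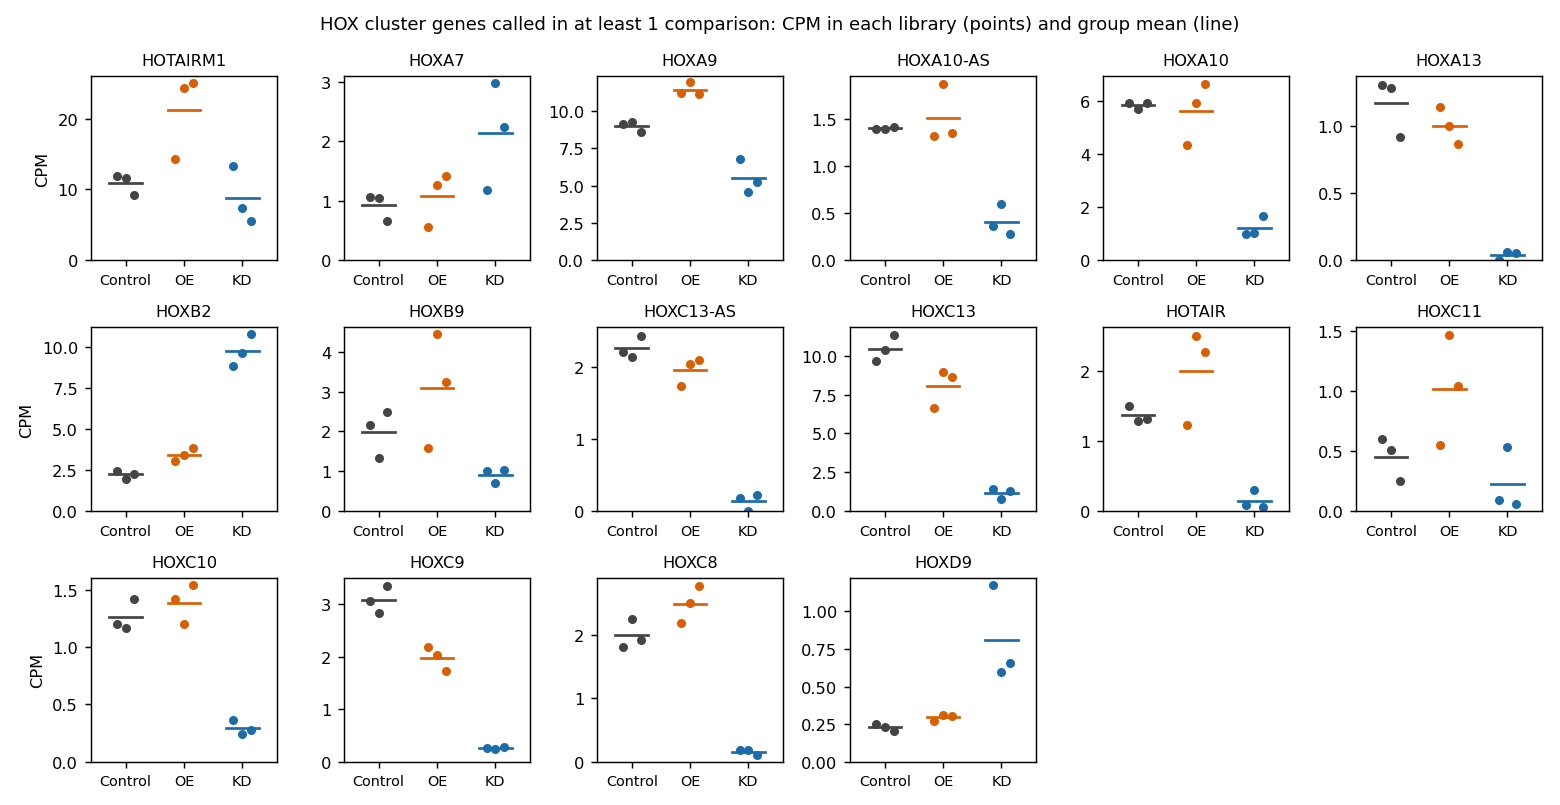
CPM of HOX members called in any comparison, in each of the 3 libraries of Control, CTCFL-OE and CTCFL-KD, with points for libraries and lines for group means. HOXC9, for example, lies between 2.84 and 3.34 CPM in Control and between 0.238 and 0.274 CPM in CTCFL-KD.

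Counted by position, the calls were most frequent at the posterior end. Among coding genes, 6 of 12 tested posterior paralogs (groups 9 to 13) were DEGs in CTCFL-KD, 5 lower and HOXD9 higher. Of the central paralogs (groups 4 to 8), 2 of 11 were called, HOXC8 lower and HOXA7 higher. Of the 6 tested anterior paralogs (groups 1 to 3), 2 were called, HOXB2 higher and 1 lower. The share called among all genes was 23.2%, and the difference between positions was not tested. Not all posterior genes fell: HOXB13 had 6.01, 4.24 and 6.64 CPM in Control and 8.30, 6.24 and 6.41 CPM in CTCFL-KD, with overlap and a log2 fold change of 0.31, and HOXD13 had 16, 19 and 19 counts in Control and 7, 8 and 8 in CTCFL-KD, for a log2 fold change of -0.71 that was not called.

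**Figure D3:**
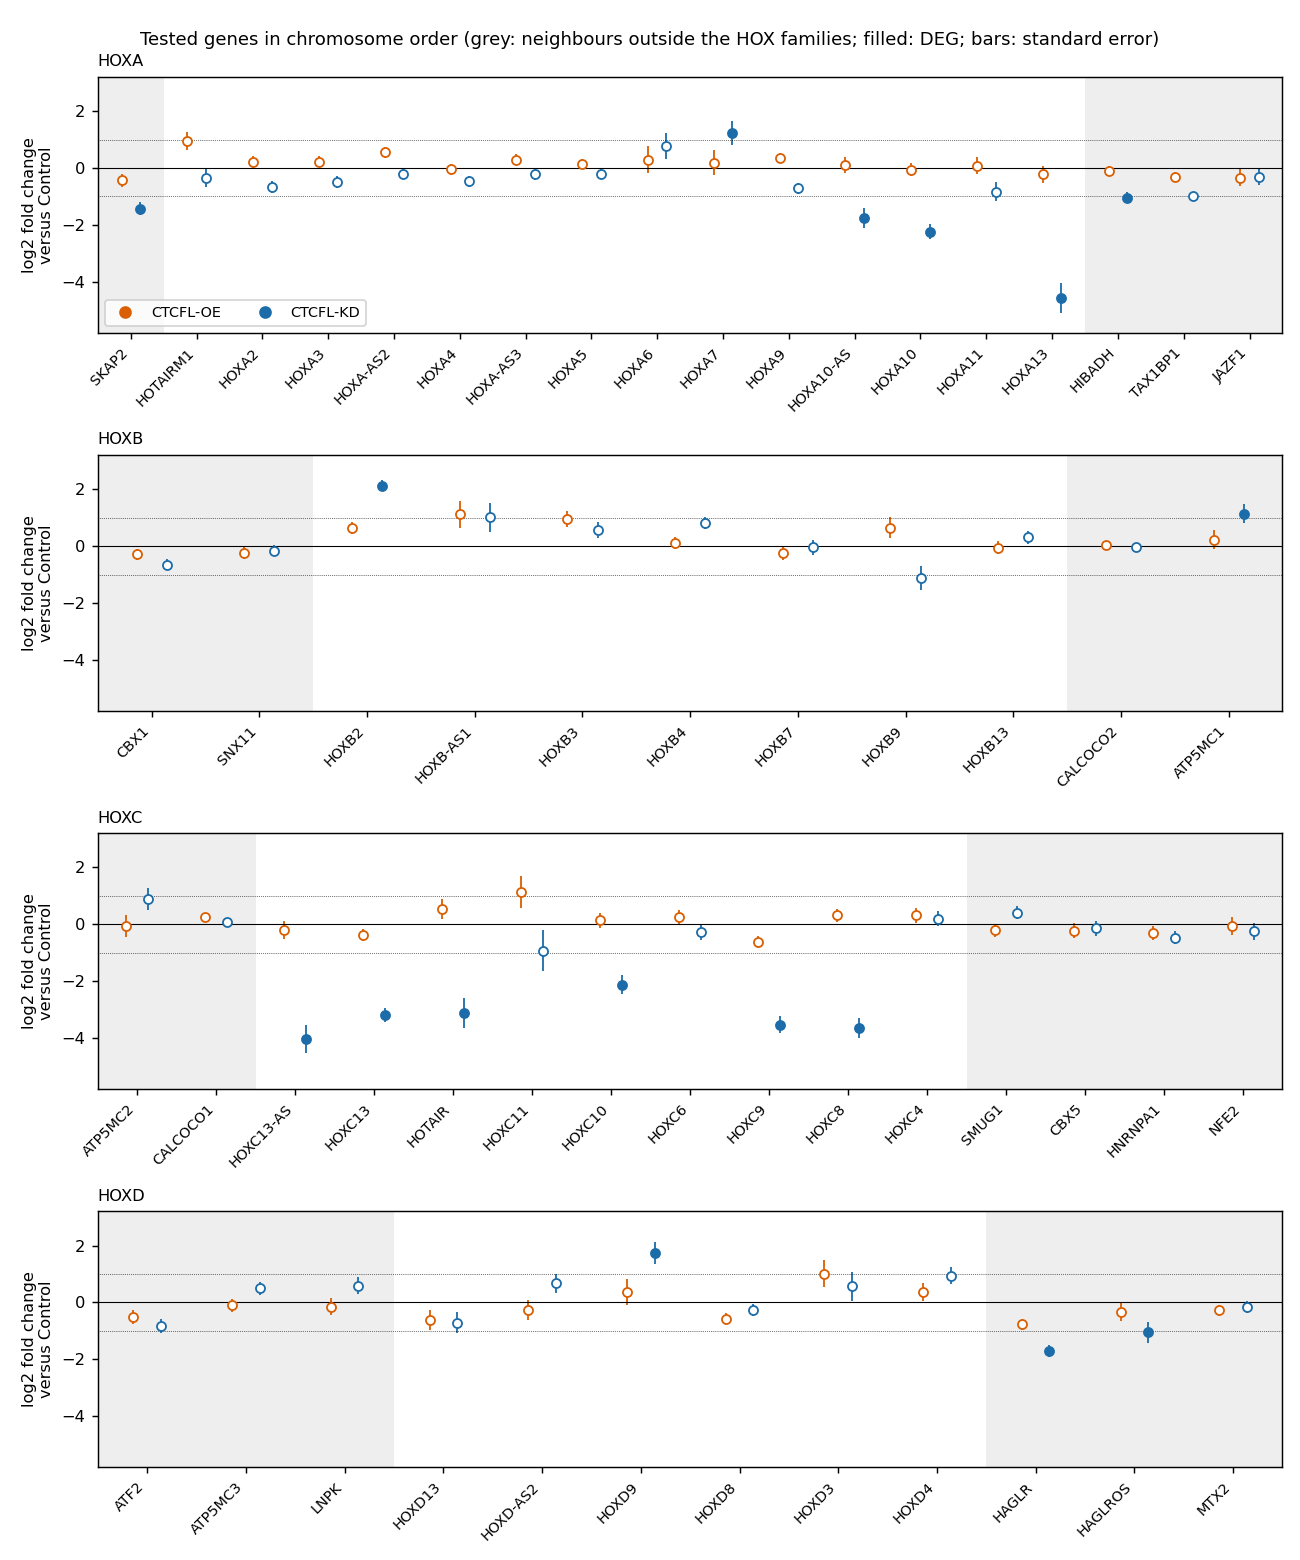
Log2 fold change of tested HOX members with standard errors, in the order of the genes along each chromosome, for CTCFL-OE and CTCFL-KD each versus Control, with filled points for DEGs, dotted lines at the fold threshold and neighbouring genes outside the HOX families on grey. In CTCFL-KD versus Control HOXC13-AS, HOXC13, HOTAIR, HOXC11, HOXC10, HOXC9 and HOXC8 lie between -4.05 and -0.93, HOXC4 lies at 0.20, and HOXC6, drawn at its upstream start, at -0.26.

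The second comparison asks which HOX genes differ when CTCFL is raised. No member passed the threshold in CTCFL-OE versus Control. By the edgeR QL test, 0 of 37 tested members were DEGs, 7 had an unadjusted p under 0.05, and DESeq2 also called 0. Among all 17794 genes, 368 were DEGs (2.07%), 1.37% higher and 0.702% lower. The number among all genes depends on single libraries: by edgeR it was 45, 61 and 44 without Control replicates 1, 2 and 3, 1184, 79 and 109 without CTCFL-OE replicates 1, 2 and 3, and 980 without CTCFL-KD replicate 1. The smallest BH-adjusted p of a member was 0.134, for HOXB3 (edgeR QL test). The median log2 fold change was 0.23 over the members and -0.01 over all genes. The CTCFL-OE and Control libraries did not overlap for 16 tested members, CTCFL-OE being higher for 10 and lower for 6, and over all tested genes this held for 16.3% and 20.8%.

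HOTAIRM1 came near the threshold. It had 11.9, 11.7 and 9.27 CPM in Control and 14.27, 24.3 and 25.1 CPM in CTCFL-OE. Replicate 1 of CTCFL-OE lay just above Control and the others far above it, and the log2 fold change of 0.95 was not called (SE 0.312, BH-adjusted p = 0.159, edgeR QL test). Without CTCFL-OE replicate 1 it was 1.17 and was called (BH-adjusted p = 0.0580, edgeR QL test, range over all alternatives 0.00148 to 0.488). HOXB3 and HOXB-AS1, named after their values were seen, were also called in some fits, HOXB3 without CTCFL-OE replicate 1 and HOXB-AS1 without CTCFL-KD replicate 1 or with only the groups compared. HOXB3 had 197, 235 and 182 counts in Control and 289, 398 and 329 in CTCFL-OE, and HOXB-AS1 had 5, 10 and 7 against 15, 12 and 15.

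The summed level of HOXA was 269.5, 281.8 and 286.3 CPM in CTCFL-OE, above all Control libraries, and that of HOXB 42.0, 51.7 and 48.7 CPM, also above. HOXC, at 24.0, 30.8 and 27.5 CPM, and HOXD, at 8.76, 10.5 and 8.79 CPM, overlapped Control, HOXD with the lower mean in CTCFL-OE (9.35 against 11.1 CPM). The sums were not tested. The leading genes of the clusters in CTCFL-OE were HOXA5 at 68.0, 57.5 and 51.8 CPM, HOXB7 at 11.8, 11.2 and 10.5 CPM, HOXC13 at 6.66, 8.94 and 8.67 CPM and HOXD8 at 3.83, 4.70 and 3.56 CPM. HOXA5 overlapped Control, while HOXB7, HOXC13 and HOXD8 lay below it in every library, with log2 fold changes of -0.24, -0.38 and -0.57.

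CTCFL-OE also left the genes that fell in CTCFL-KD uncalled. HOXC9 had 48, 39 and 28 counts in CTCFL-OE, below Control in each library at a log2 fold change of -0.63, and HOXC8 had 48, 48 and 45, overlapping Control at 0.31. HOTAIR had 27, 48 and 37 counts and HOXC10 had 31, 23 and 25, both overlapping Control. HOXA13 had 25, 19 and 14 counts, HOXA10 had 95, 113 and 108 and HOXA10-AS had 29, 36 and 22, all overlapping Control. HOXC13-AS had 38, 39 and 34 counts, or 1.73, 2.04 and 2.09 CPM, below Control in each library at -0.21. Of the 3 members that rose in CTCFL-KD, HOXB2 had 67, 65 and 63 counts in CTCFL-OE, above Control at 0.63, HOXD9 had 6, 6 and 5, and HOXA7 had 12, 24 and 23.

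The third comparison tests the treated groups against each other and, as both were compared with the same Control, also the difference between their changes. By edgeR, 16 of 37 members were DEGs in CTCFL-KD versus CTCFL-OE (43.2%), against 17.0% of all genes (3032 of 17794). Of these, 14 were lower in CTCFL-KD, where 6.42% of all genes were, and 2 were higher, HOXB2 and HOXD9, where 10.6% of all genes were. The CTCFL-KD libraries lay wholly below the CTCFL-OE ones for 19 members and wholly above for 4, against 19.5% and 20.3% of all tested genes. The lower DEGs include all 10 that fell against Control. HOXC8 differed by -3.97 on the log2 scale (SE 0.342, BH-adjusted p = 2.88e-05, edgeR QL test). HOXC13 differed by -2.82 and HOXC9 by -2.90, at BH-adjusted p = 4.02e-05 and 7.41e-05 in the edgeR QL test. HOXB2 differed by 1.51 (SE 0.199, BH-adjusted p = 0.000340, edgeR QL test).

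Besides those 10, HOTAIRM1, HOXA9, HOXB9 and HOXC11 were lower in CTCFL-KD than in CTCFL-OE. HOTAIRM1 had 13.3, 7.43 and 5.59 CPM in CTCFL-KD, below all CTCFL-OE libraries and overlapping Control, and HOXA9 had 11.2, 12.0 and 11.1 CPM in CTCFL-OE, where the CTCFL-KD values given above lay below both other groups. HOXB9 had 35, 85 and 53 counts in CTCFL-OE and HOXC11 had 12, 28 and 17, both highest in CTCFL-OE replicate 2. The log2 differences were -1.29 for HOTAIRM1, -1.06 for HOXA9, -1.75 for HOXB9 and -2.06 for HOXC11. Several of these calls rest on single libraries or on the form of the fit. With only the groups compared, the edgeR QL test did not call HOXC11 or HOXD9 (BH-adjusted p = 0.084 and 0.070). A term for the replicate number in that fit also ended the calls of HOTAIRM1 and HOXB9 (BH-adjusted p = 0.0947 and 0.0545, edgeR QL test). On all 9 libraries that term ended none of these calls. By the edgeR QL test, HOTAIRM1 had a BH-adjusted p of 0.0505 without CTCFL-OE replicate 2, and HOXA9 passed only the p threshold, at a log2 difference of -0.97, without CTCFL-KD replicate 2. HOXC11 lost its call without any 1 of 7 libraries, all except CTCFL-OE replicate 1 and CTCFL-KD replicate 2 (log2 difference -3.78 to -1.52 over the 9 fits, BH-adjusted p up to 0.148, edgeR QL test). HOXD9, at 1.37, lost its call without any 1 of the CTCFL-OE libraries (BH-adjusted p = 0.0619, 0.0698 and 0.0564, edgeR QL test), and HOXA7, at 1.04, gained one without CTCFL-KD replicate 1 (log2 difference 1.31, BH-adjusted p = 0.0171, edgeR QL test).

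Some genes beside the clusters were called as well. Of 20 tested neighbours among 26 listed, 5 were DEGs in CTCFL-KD versus Control, 4 lower and 1 higher, where 23.2% of all genes were DEGs. Around HOXC, edgeR called 0 of 6 neighbours in CTCFL-KD versus Control, 1 had an unadjusted p under 0.05 and DESeq2 called 0, and their log2 fold changes lay between -0.47 and 0.90 with a median of -0.03. Beside HOXA, SKAP2, which encodes an adaptor protein of Src kinase signalling, fell by 1.43 on the log2 scale, from 110.7 ± 3.14 to 41.0 ± 10.5 CPM (SD, n = 3; SE 0.231, BH-adjusted p = 0.000864, edgeR QL test). HIBADH, a valine catabolism enzyme beyond the posterior end of the cluster, fell by 1.04.

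Within HOXD, the noncoding genes HAGLR and HAGLROS, which lie outside the naming rule, fell, with log2 fold changes of -1.71 and -1.05. HAGLR had 289, 387 and 273 counts in Control, 187, 175 and 127 for CTCFL-OE and 37, 75 and 97 for CTCFL-KD. The groups did not overlap after normalisation (BH-adjusted p = 0.000109 for CTCFL-KD versus Control, edgeR QL test). Near HOXB, ATP5MC1, a subunit of ATP synthase, rose by 1.14, with 2718 counts in CTCFL-KD replicate 1 against 1643 and 1632 in the others. In CTCFL-OE versus Control edgeR called 0 of 20 neighbours (1 at an unadjusted p under 0.05, 0 by DESeq2), and in CTCFL-KD versus CTCFL-OE SKAP2 was the 1 called.

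HOX proteins bind DNA with partners of the TALE class, the PBX, MEIS and PKNOX proteins. Of 8 tested partners, 2 were called in CTCFL-KD versus Control, against 23.2% of all genes. MEIS1 had 403, 509 and 338 counts in Control, 534, 461 and 382 for CTCFL-OE and 682, 998 and 1178 for CTCFL-KD, and it rose by 1.70 on the log2 scale, from 19.0 ± 1.67 to 61.8 ± 2.60 CPM (SD, n = 3; SE 0.154, BH-adjusted p = 2.14e-05, edgeR QL test). MEIS3 had 584, 652 and 587 counts in Control, 605, 507 and 444 for CTCFL-OE and 88, 73 and 86 for CTCFL-KD, and it fell by 2.33, from 28.1 ± 2.41 to 5.66 ± 1.98 CPM (SE 0.230, BH-adjusted p = 4.08e-05, edgeR QL test). The related genes thus moved in opposite directions, each with separate groups. PBX4 was called only in CTCFL-KD versus CTCFL-OE, at -1.27. In CTCFL-OE versus Control edgeR called 0 of 8 partners, with 2 at an unadjusted p under 0.05, and DESeq2 called 0. The median log2 fold change of the list in CTCFL-KD was -0.15, against 0.08 over all genes.

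Polycomb proteins keep HOX clusters silent and Trithorax and MLL proteins keep them active. Of 27 Polycomb genes, all tested, 1 was called in CTCFL-KD versus Control, where 23.2% of all genes were: CBX8, a reader of methylated histone H3, which rose by 1.003, from 10.5 ± 1.47 to 21.1 ± 2.90 CPM (SD, n = 3), just past the fold threshold. By the edgeR QL test, 17 of the Polycomb genes had an unadjusted p under 0.05, some higher and some lower. EZH2, the catalytic subunit, lay below Control in every CTCFL-KD library. Its log2 fold change of -0.62 passed the p threshold and not the fold threshold (BH-adjusted p = 0.0101, edgeR QL test). Of 18 Trithorax and MLL genes, AFF1, a partner of the elongation machinery, was the 1 called, and fell by 1.08 with 171 counts in CTCFL-KD replicate 1 against 665 and 747 in the others. KMT2A, the MLL methyltransferase itself, had a log2 fold change of 0.14. The medians of the lists were -0.15 each, against 0.08 over all genes, and in CTCFL-OE versus Control edgeR and DESeq2 each called 0 genes of either list, with 2 Polycomb and 0 Trithorax and MLL genes at an unadjusted p under 0.05.

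Retinoic acid induces HOX genes through its receptors, the anterior genes first. Of 14 tested genes of retinoic acid signalling among 18 listed, 5 were called in CTCFL-KD versus Control, 4 higher and 1 lower, where 15.3% of all genes were higher and 7.94% lower. The median log2 fold change of the list was 0.46, against 0.08 over all genes. RARB, a receptor that is itself a target of retinoic acid, had 4, 5 and 6 counts in Control and 6, 22 and 23 in CTCFL-KD, and rose by 2.19. ALDH1A3, which makes retinoic acid, had 24, 37 and 26 counts in Control and 2, 9 and 12 in CTCFL-KD, and fell by 1.43. The carrier CRABP2 and the enzyme ALDH1A1, named here after their values were seen, rose by 1.23 and 1.22.

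DHRS3, an enzyme that turns retinal back into retinol and is induced by retinoic acid, was the 1 called gene of this list in CTCFL-OE versus Control. It had 257, 310 and 251 counts in Control, 707, 681 and 607 for CTCFL-OE and 328, 189 and 309 for CTCFL-KD. CTCFL-OE lay above both other groups, and DHRS3 rose by 1.48 (SE 0.289, BH-adjusted p = 0.0413, edgeR QL test). In CTCFL-KD versus CTCFL-OE, CRABP2 was called higher, at 1.55. The degrading enzymes CYP26A1, CYP26B1 and CYP26C1 had too few counts to be tested. None of the 6 ParaHox and caudal genes could be tested either, and the highest count among them was 9, of CDX2 in Control replicate 1.

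**Figure D4:**
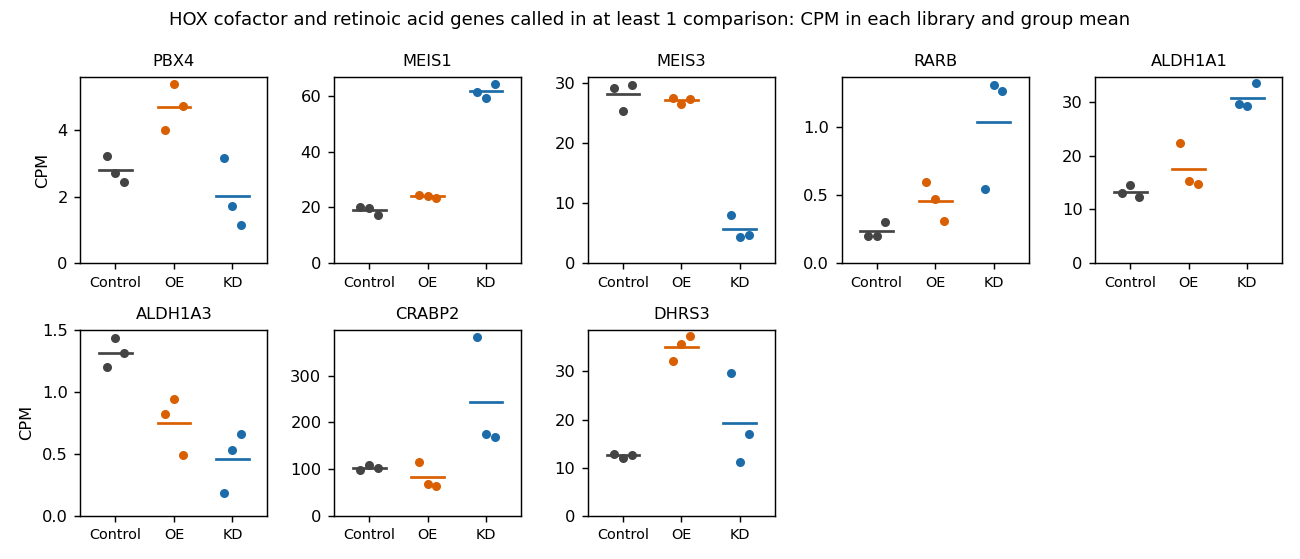
CPM of called HOX partner genes and retinoic acid genes in each of the 3 libraries of Control, CTCFL-OE and CTCFL-KD, with points for libraries and lines for group means. MEIS1 rises from a mean of 19.0 CPM in Control to 61.8 in CTCFL-KD, MEIS3 falls from 28.1 to 5.66, and DHRS3 stands highest in CTCFL-OE at 35.0.

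Among 12 genes of the Müllerian lineage and of ovarian carcinoma, 8 could be tested and 4 were called in CTCFL-KD versus Control, 3 higher and 1 lower, where 23.2% of all genes were called. Their median log2 fold change was 0.49, against 0.08 over all genes. WNT4, needed to form the Müllerian duct, had 14, 8 and 10 counts in Control, 7, 3 and 2 for CTCFL-OE and 148, 151 and 139 for CTCFL-KD, and rose by 4.30 (SE 0.364, BH-adjusted p = 1.60e-05, edgeR QL test). WNT7A, which maintains HOXA expression in the developing uterus, had 222, 250 and 219 counts in Control, 66, 89 and 156 for CTCFL-OE and 27, 32 and 43 for CTCFL-KD, and fell by 2.26 (SE 0.373, BH-adjusted p = 0.000988, edgeR QL test). These WNT genes moved apart, each with no overlap between CTCFL-KD and Control. MUC16, which encodes the tumour antigen CA125, rose by 2.84, and MSLN, which encodes its binding partner mesothelin, rose by 1.72. PAX8, the lineage factor, stood at 575.7 ± 10.7 CPM in Control and 814.2 ± 143 in CTCFL-KD (SD, n = 3) and was not called.

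The line's epithelial ovarian identity was visible in every library, and so were differences between groups in markers of other cells. All 9 epithelial markers were tested, KRT8 most abundant, and their summed level was 5817, 5944 and 5843 CPM in Control, 5391, 5148 and 4760 for CTCFL-OE and 16170, 10190 and 9626 for CTCFL-KD; 4 rose and KRT7 fell in CTCFL-KD. Of 10 fibroblast and mesenchymal markers, 3 were tested, and COL1A1 was most abundant. Their summed level was 35.1, 33.6 and 29.4 CPM in Control, 28.8, 39.8 and 47.1 for CTCFL-OE and 53.4, 45.2 and 44.4 for CTCFL-KD, and without COL1A1 it was 3.06, 2.76 and 2.94, then 5.61, 4.55 and 4.98, then 27.3, 22.8 and 23.1 CPM. COL1A2 had 0 counts in each Control library and 156, 239 and 247 in CTCFL-KD, at least 303.4-fold higher against a limit of 3 counts over the group, COL3A1 had 0 counts in Control and 8, 9 and 8 in CTCFL-KD, and TWIST1 rose by 2.03. PRRX1 was at 0 in all 9 libraries and DCN had at most 4 counts.

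The endothelial markers summed to 8.97, 9.09 and 8.05 CPM in Control, 12.0, 11.0 and 11.3 for CTCFL-OE and 11.1, 19.3 and 19.9 for CTCFL-KD. VWF was their most abundant gene by CPM over all libraries, KDR rose by 2.73, PECAM1 fell by 2.56 and CDH5 had at most 7 counts. The leukocyte markers summed to 0.551, 0.855 and 0.709 CPM in Control, 0.730, 1.05 and 1.78 for CTCFL-OE and 4.51, 2.56 and 2.63 for CTCFL-KD, with CD14, the most abundant, up by 3.84, CD3E and HBB at 0 in Control and PTPRC at most at 8 counts. The part of these markers in the HOX results was not tested, and in RNA from whole cultures a change of cell mixture and a change per cell cannot be told apart.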

How the data were processed

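RNA of OVCAR3 cells was sequenced in 9 libraries, grouped by their labels into Control and the treatments CTCFL-OE and CTCFL-KD with 3 libraries each. The authors trimmed the reads with Trimmomatic, aligned them to GRCh38 with STAR and made the deposited counts per gene with featureCounts, according to the study's methods; the labels name kallisto and not STAR, a difference that the files do not settle. Which annotation was used, whether strand was counted and how reads with several places were handled are not stated. Gene names, exons and coordinates were taken from GENCODE 44, which names 60419 of the 60660 identifiers, and promoter windows from a RefSeq table.

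From the counts, genes were kept by filterByExpr, scaled by TMM and tested in edgeR 4.0.16 (limma 3.58.1, R 4.3.3) with glmQLFit (robust) and glmQLFTest, all 9 libraries in 1 fit with condition as the only term. Adjusted p-values are by Benjamini and Hochberg over the 17794 genes kept. A DEG passes a log2 fold change of 1, up or down, with an adjusted p under 0.1 (CTCFL-OE versus Control) or 0.05 (the comparisons with CTCFL-KD). Tables and figures were made in Python 3.11.15 with pandas 2.3.3, numpy 2.4.6, scipy 1.17.1 and matplotlib 3.10.9. The fits were tested on simulated data, and no outcome of that test is used here. Depth ran from 14332622 to 24490080 counts per library. Where a group had 0 counts, 3 counts over the group gave the limit, and intervals for small counts are binomial.

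Members follow the naming rule given below. Lists of HOX partners, Polycomb, Trithorax and MLL, retinoic acid, ParaHox and caudal, neighbouring, Müllerian and marker genes were written out from general knowledge, and members and lists were chosen with earlier results of these data known. Lists are described by counts and medians and were not tested as sets.

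The labels give each group replicates 1 to 3 and nothing that links equal numbers. Over 15371 genes, deviations from the group means correlated between Control and CTCFL-KD libraries of equal number at r = 0.251, 0.151 and 0.173 (0.142, 0.108 and 0.121 with trends in exon length and GC removed), all above 0.1, although CTCFL-KD came from another experiment. The reported fit has no term for the replicate number, and fits with that term are among the alternatives. Alternatives were DESeq2 1.42.0, only the groups compared, RLE scaling, other filters, adjusted p alone, a replicate block, removal of length and GC trends, each library left out in turn, and all exonic bases as gene length.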

Additional observations from a re-analysis of the deposited data

How the results depend on the processing

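All cells are of 1 line, CTCFL-KD has no control of its own experiment, and both treated groups were set against the same 3 Control libraries. Several of the named members had under 50 counts per library. Reads of antisense and overlapping HOX genes cannot be told apart, and paralogs stand as the authors' settings counted them. The cause of any dependence below was not tested.

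In CTCFL-OE versus Control, the number of HOX members called higher (0 reported) was 1 with edgeR on only the groups compared, 1 with the replicate block on only those groups, and 1 with length and GC trends removed, without and with the block; leaving out 1 library gave 0 to 2. DEGs among all genes (368 reported) were 752 with DESeq2 and 835 with edgeR on only the groups compared, 826 with no low-count filter, 817 with the block on only the groups compared, 574 with length and GC trends removed and no block, 561 by adjusted p alone, and 44 to 1184 with 1 library left out. The replicate numbers did not pair these libraries (r = -0.0324, 0.188 and -0.0469), and not every library correlated best with its own number.

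In CTCFL-KD versus Control, HOX members called higher (3 reported) were 5 by adjusted p alone, and DEGs among all genes (4132 reported) were 6800. Of the 13 members called, 12 kept their call in every alternative in which they were tested, and HOXA7 lost it in 9 of 20. On only the groups compared, the replicate block ended the call of HOXA7 and changed no other HOX call of CTCFL-KD versus Control, HOXB9 being called there without and with it; on all 9 libraries it changed none. With length and GC trends removed, HOXA2, HOXA11 and HOXB9 were also called, and HOXD13 only without the block.

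In CTCFL-KD versus CTCFL-OE, HOX members called higher (2 reported) were 1 with DESeq2 on all 9 libraries, 1 with DESeq2 and 1 with edgeR on only the groups compared, 1 with no low-count filter, 1 with a mean count of at least 10, 1 with the replicate block on only the groups compared, and 1 with length and GC trends removed and the block; leaving out 1 library gave 1 to 3. HOX members called lower (14 reported) were 11 with the block on only the groups compared, 16 with no low-count filter and 17 by adjusted p alone. HOTTIP was among them with DESeq2 on all 9 libraries and with no low-count filter, and HOXC-AS2 with no low-count filter. DEGs among all genes (3032 reported) were 1923 with the block on only the groups compared and 4771 by adjusted p alone. Equal numbers correlated at r = 0.00938, 0.0800 and 0.0101, and not every library correlated best with its own. Of the 16 members called, 11 kept their call throughout.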

Other observations

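The HOXA members not yet named include the anterior gene HOXA2, which acts in the hindbrain, and its noncoding neighbours. HOXA2 had 17.0, 16.8 and 14.9 CPM in Control, 17.6, 17.8 and 21.6 for CTCFL-OE and 13.8, 8.32 and 8.82 for CTCFL-KD, above Control in one treated group and below it in the other, with log2 fold changes of 0.23 and -0.66. HOXA-AS2, beside HOXA3, had 543, 774 and 485 counts in Control, 701, 853 and 713 for CTCFL-OE and 306, 395 and 375 for CTCFL-KD. Its CTCFL-OE libraries lay above Control after normalisation and its CTCFL-KD libraries overlapped it, at log2 fold changes of 0.56 and -0.20. HOXA11, a uterine patterning gene, had 13, 22 and 14 counts in Control and 5, 7 and 7 in CTCFL-KD, below Control in each library at -0.84, and HOXA6 had 7, 11 and 13 against 4, 17 and 18. None of these genes was called in the reported fits, but with trends in exon length and GC removed HOXA2 and HOXA11 were called lower in CTCFL-KD than in Control and in CTCFL-OE, and without CTCFL-KD replicate 1 HOXA2 was called in CTCFL-KD versus CTCFL-OE.

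Among weakly expressed members, HOXD-AS2 had 33, 44 and 33 counts in Control, 35, 27 and 19 for CTCFL-OE and 49, 30 and 37 for CTCFL-KD, with CTCFL-KD above Control at a log2 fold change of 0.67 that was not called. HOXB6, a central gene, had 9, 12 and 13 counts in Control and 3, 1 and 4 in CTCFL-KD, and HOXD1, the most anterior HOXD gene, had 6, 8 and 6 against 0, 5 and 0. Both had too few counts to be tested in the reported fit. HOXB6 was called lower in CTCFL-KD than in Control with no low-count filter, without CTCFL-KD replicate 1 and without CTCFL-OE replicate 3. HOXB5 and HOXD12 were close to silent, with at most 3 counts in any library.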
